A study of Mus musculus with 14 samples.

Results

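The genes of Polycomb repressive complex 2 (PRC2) and its accessory subunits in mouse ES cells, Jarid2, Mtf2, Ezh2, Eed and Suz12, were taken by name, 5 of the 22350 protein-coding genes annotated by GENCODE vM1 on the mm9 genome. Every ChIP-seq peak whose centre lay within 100 kb of 1 of these gene bodies was collected, 82 of the 24416 peaks in 8 peak lists. The study mapped the binding of SIM2, a bHLH-PAS transcription factor, with an anti-FLAG antibody in 3 mouse ES clones (A6, B8 and C4) that carry a Sim2-FLAG transgene under a tetracycline-controlled promoter (ROSA-TET system). All cells were cultured without tetracycline for 26 h, a condition under which the clones express the transgene. The parental EBRTcH3 (EB3) line, which lacks the Sim2-FLAG construct, was the FLAG ChIP control, and the clones and EB3 all carry the Venus reporter of the system. NANOG and OCT4, transcription factors of pluripotent cells, and MED1 and MED12, subunits of the Mediator coactivator, were mapped in A6 with 1 library each. The paper also describes ChIP of these factors in EB3, which was not analysed here. Of the 14 libraries, the 6 inputs have no list of their own, and SOX2 was not analysed here. Each clone was 1 culture of 1 overexpressing line, so the sites describe overexpressed, tagged SIM2. The NANOG, OCT4, MED1 and MED12 peaks used here were all measured in cells that express the transgene.

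PRC2 trimethylates lysine 27 of histone H3 and keeps developmental genes silent in ES cells. EZH2 is the methyltransferase, EED reads the mark and stimulates the enzyme, and SUZ12 holds the core together. JARID2, which binds nucleosomes and DNA, and MTF2 (PCL2), a Polycomb-like protein that binds CpG-rich DNA, are accessory subunits that bring PRC2 to its targets in these cells.

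The accessory subunit Jarid2, whose window is the longest, had 43 of the 82 peaks when all lists were pooled, SIM2 being counted in 3 of them. Most NANOG peaks (16 of 29) and most OCT4 peaks (9 of 15) lay near the other 4 genes. There were 14 peaks at Mtf2, 17 at Eed, 6 at Suz12 and 2 at Ezh2. A SIM2 site was defined as peaks of at least 2 of the 3 clones with centres within 100 bp of each other and no EB3 peak centre within 100 bp, and 5 of the 1229 such sites fell near these genes, 4 at Jarid2 and 1 at Mtf2. Ezh2 and Eed had SIM2 peaks of a single clone, and Suz12 had none in any clone. The EB3 control had no peak near any of the 5 genes. These counts, and the shares of all genes and densities given below, come without a test. The 5 genes were chosen with earlier results of these data known. SIM2 has 3 libraries, 1 for each clone, and NANOG, OCT4, MED1 and MED12 have 1 library each.

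The 5 SIM2 sites are shown as the 200 bp around the centre of each, since they are the positions near PRC2 genes where more than 1 clone had a SIM2 peak. Positions are given from the transcription start site of the gene, negative upstream and positive downstream. The sequences are from mm9, plus strand, 5′ to 3′, at chr13:44773524-44773723, chr13:44774902-44775101, chr13:44817681-44817880, chr13:44847218-44847417 and chr5:108506104-108506303, in that order. Both genes lie on the plus strand. Capitals mark exact matches, on either strand, to the letters searched: ATGCAAA (octamer, bound by OCT4), CATTGT and CTTTGT (SOX proteins) and AAGGTCA (ESRRB, an orphan nuclear receptor).
Jarid2, -51.2 kb: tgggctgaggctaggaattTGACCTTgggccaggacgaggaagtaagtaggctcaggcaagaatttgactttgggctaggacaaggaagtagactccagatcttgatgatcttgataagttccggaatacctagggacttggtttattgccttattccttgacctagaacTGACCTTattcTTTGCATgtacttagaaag
Jarid2, -49.8 kb: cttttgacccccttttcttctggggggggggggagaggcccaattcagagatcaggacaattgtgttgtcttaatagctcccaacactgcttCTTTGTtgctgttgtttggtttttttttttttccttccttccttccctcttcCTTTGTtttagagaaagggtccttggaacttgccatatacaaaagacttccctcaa
Jarid2, -7.1 kb: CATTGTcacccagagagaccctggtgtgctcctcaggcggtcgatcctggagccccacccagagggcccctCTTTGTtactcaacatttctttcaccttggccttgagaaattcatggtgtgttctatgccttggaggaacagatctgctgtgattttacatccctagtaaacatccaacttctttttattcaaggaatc
Jarid2, +22.5 kb: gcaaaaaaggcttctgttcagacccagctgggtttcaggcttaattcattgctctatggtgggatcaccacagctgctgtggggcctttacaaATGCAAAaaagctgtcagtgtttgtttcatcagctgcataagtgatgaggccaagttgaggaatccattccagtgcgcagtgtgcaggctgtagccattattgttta
Mtf2, +11.5 kb: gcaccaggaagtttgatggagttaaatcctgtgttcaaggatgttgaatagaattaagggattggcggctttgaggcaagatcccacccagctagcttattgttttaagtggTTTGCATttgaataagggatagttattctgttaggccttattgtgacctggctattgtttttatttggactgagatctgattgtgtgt
Read on the plus strand, the octamer letters appear as TTTGCAT at -51.2 kb of Jarid2 and at Mtf2, and the ESRRB letters appear as TGACCTT.

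The site at -51.2 kb held the ESRRB letters at 2 positions and the octamer letters once. The site at -49.8 kb held CTTTGT at 2 positions, and the site at -7.1 kb held CATTGT and CTTTGT once each. The intronic sites at +22.5 kb of Jarid2 and at +11.5 kb of Mtf2 each held the octamer letters once, 7 bp and 12 bp from the centre. The full octamer ATGCAAAT, the KLF letters CCACACCC and the SIM2-ARNT letters TACGTG and ACGTG (the second is contained in the first) were in none of the 5 windows. ATGCAAA, the first 7 letters of the octamer, was added after the sequences had been read. Among all 1229 SIM2 sites, ATGCAAA was in 18.6%, ATGCAAAT in 7.40%, CATTGT in 19.9%, CTTTGT in 33.5%, AAGGTCA in 11.9%, CCACACCC in 3.99%, TACGTG in 3.50% and ACGTG in 14.1% of windows of the same length. The GC content of the 5 windows was 44.5%, 44.0%, 48.0%, 46.5% and 40.0%, and the median of all sites was 47.5%.

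For each peak the lists give a normalized tag count (reads in the peak, scaled to library size) and the fold over the input. The tag count is not on 1 scale across lists. Expressed in the same unit, it was 0.970 times the peak caller's score in A6 and 0.996 times in EB3, but 0.499 to 0.504 times the score in the other 6 lists. Ranks within a list are therefore given, where rank 1 is the highest tag count and tied peaks share the better rank. The lists differ in length, from 81 peaks in EB3 and 631 in C4 to 2137 in B8, 2387 in A6 and 14815 for NANOG, and OCT4, MED1 and MED12 have 2532, 762 and 1071. If tags were scaled to 10 M, the depth was 12.9 M (NANOG) to 31.5 M (OCT4). A position without a peak was below the caller's threshold in that library, which does not show that the factor was absent.

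A SIM2 site of at least 2 clones lay within 100 kb of 2 of the 5 genes, and of 13.4% of all protein-coding genes. By clone, A6 had peaks near 3 of the 5 genes (23.0% of all genes), B8 near 3 (19.8%) and C4 near 2 (6.07%), and EB3 near none (1.14%). NANOG had a peak near all 5 (67.7%), OCT4 near 4 (21.8%), MED12 near 4 (10.9%) and MED1 near 3 (7.98%). Per Mb, the windows of the 5 genes together held 21.2 NANOG peaks against 5.61 in the whole genome, 11.0 OCT4 peaks against 0.959, 5.85 MED1 peaks against 0.289 and 8.04 MED12 peaks against 0.406. For SIM2 the windows held 5.85 A6 peaks per Mb against 0.905, 5.12 B8 peaks against 0.810 and 2.92 C4 peaks against 0.239. The share of these peaks that came from the Jarid2 window differed by list, and outside it there remained 16 of 29 NANOG, 9 of 15 OCT4, 3 of 8 MED1, 5 of 11 MED12, 2 of 8 A6, 3 of 7 B8 and 1 of 4 C4 peaks. The genome densities divide by the full length of the chromosomes, regions far from genes included. The density in windows around all protein-coding genes was not computed.

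**Figure D1:**
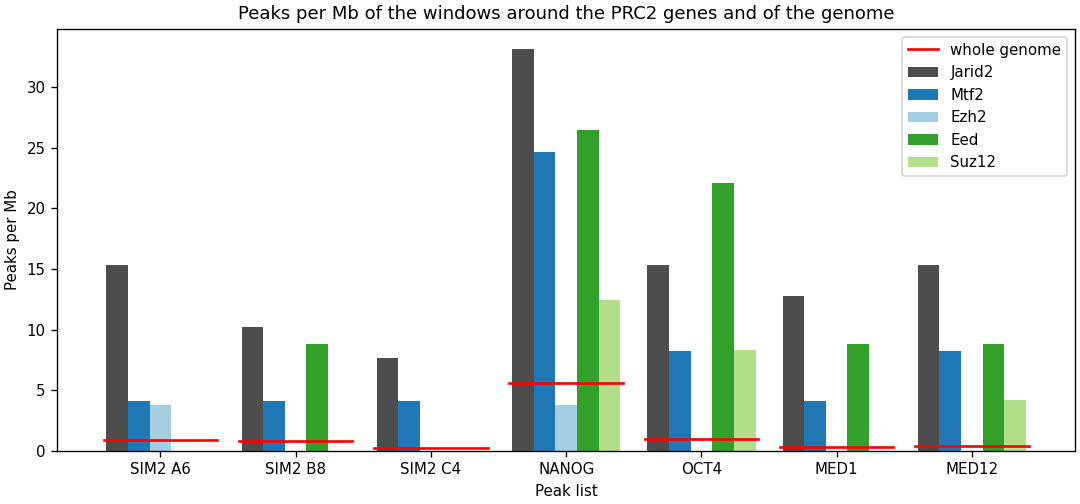
Peaks per Mb (y axis) in the 100 kb windows around each PRC2 gene body (bars) for 7 peak lists (x axis), with the density of the list in the whole genome as a red line; EB3, with no peak near these genes, is not drawn. Jarid2 has the tallest bar in every list but OCT4, where Eed reaches 22.1 peaks per Mb against 15.3 at Jarid2, and Ezh2 lies below the genome line for NANOG.

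Jarid2 (ENSMUSG00000038518.8, chr13:44824843-45017012, plus strand) had 6 A6, 4 B8, 3 C4, 13 NANOG, 6 OCT4, 5 MED1 and 6 MED12 peaks. In its window, 109.6 peaks lay per Mb against 9.25 in the genome. A count of 43 peaks or more was reached by 2 genes, Jarid2 included, or 0.00895% of protein-coding genes. At least 4 SIM2 sites were found at 10 genes (0.0447%), at least 6 MED12 peaks at 3 genes (0.0134%), at least 6 OCT4 peaks at 5 genes (0.0224%), and at least 5 MED1 peaks or at least 13 NANOG peaks at 31 genes each (0.139% each). Jarid2 has a long body of 192.17 kb, so its window of 392.17 kb is longer than those of the other 4 genes, which run from 226.328 kb to 265.068 kb. Of its 43 peaks, 42 had Jarid2 as the nearest transcription start site. Most lay upstream, and the peaks of more than 1 factor clustered between -51.2 kb and +22.5 kb.

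**Figure D2:**
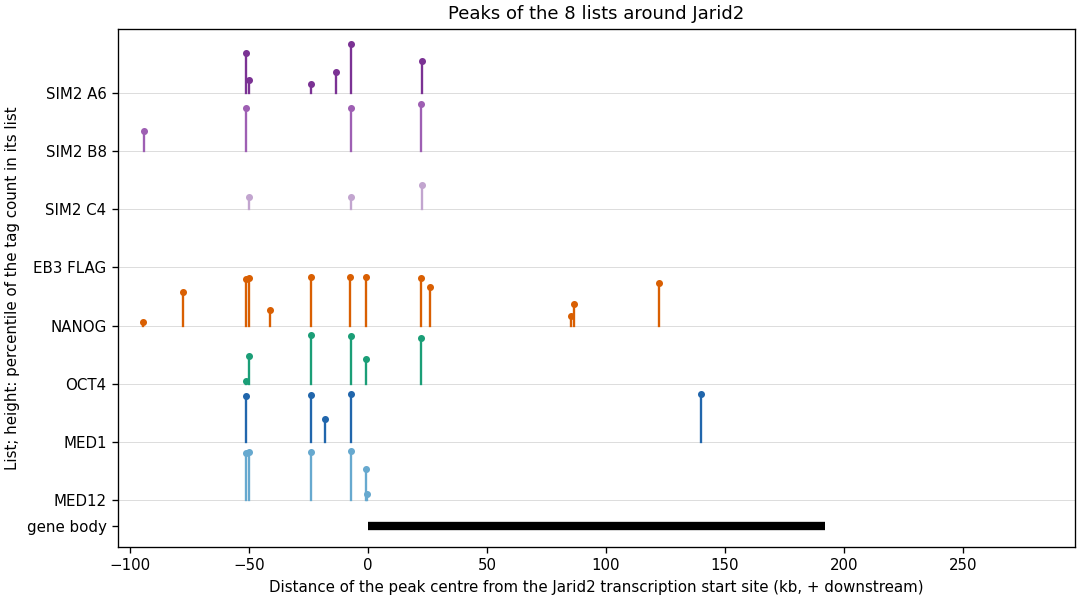
Peaks of the 8 lists (rows) around Jarid2, by distance of the peak centre from the transcription start site (x axis, kb), where the height of each stick is the percentile of the tag count within its own list and the black bar is the gene body. SIM2, NANOG, OCT4 and Mediator sticks stack at -51.2, -49.8, -24.0 and -7.1 kb, SIM2 stacks with NANOG and OCT4 alone at +22.5 kb, and the right part of the gene body holds NANOG sticks and a lone MED1 stick.

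The site at -7.1 kb of Jarid2 had a SIM2 peak in all 3 clones, with 28.3 tags in A6 (18.63-fold over the input), 6.8 in B8 (9.79-fold) and 3.7 in C4 (7.24-fold). It ranked 41 of 2387 in A6 and 290 of 2137 in B8 but 478 of 631 in C4. By tag count it was thus high in the first 2 lists and low in the third. By fold, each of these 3 peaks was above its list median, which was 5.43 for C4, 5.53 for B8 and 7.15 for A6. The mean over the clones was 12.9 ± 13.4 tags (SD, n = 3), on scales that differ between the clones. MED12 peaked 2 bp from the SIM2 centre with 28.6 tags, 19.81 times the input, and ranked 4 of 1071. OCT4 lay 46 bp from the SIM2 centre with 10.5 tags and ranked 99 of 2532. NANOG (25.6 tags, rank 274 of 14815) and MED1 (17.2 tags, rank 26 of 762) were centred 303 bp and 280 bp away. Coincidence was judged by the gap between the intervals of site and peak, which was above 100 bp for both. OCT4 and MED12 without NANOG was a combination of 5 of the 1229 SIM2 sites (0.407%). Chained together, the peaks of all 5 factors formed 1 locus of 526 bp with 7 peaks.

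At -51.2 kb, SIM2 was found in A6 (15.0 tags, 9.88-fold, rank 468) and B8 (6.8 tags, 8.08-fold, rank 290), and not in C4. All of NANOG, OCT4, MED1 and MED12 had a peak within 100 bp, which 8.71% of SIM2 sites had. Their places by tag count were unequal. MED12 (15.3 tags, rank 41), MED1 (12.1 tags, rank 57) and NANOG (18.6 tags, rank 779) were in the upper 10% of their lists. OCT4 (3.2 tags, rank 2410 of 2532) was near the end of its list by that count. Its fold was 4.55, against a list median of 5.23. The OCT4 peaks at 5.3 kb of Eed (rank 1929) and 105.9 kb of Suz12 (rank 1478) had the same fold. At -49.8 kb, SIM2 was found in A6 (9.4 tags, 6.21-fold, rank 1744) and C4 (3.7 tags, 5.88-fold, rank 478), and not in B8. By tag count these peaks were low in both lists. By fold, the A6 peak was below its list median of 7.15 and the C4 peak above its list median of 5.43. MED12 there had 18.6 tags (rank 19), NANOG 20.1 tags (rank 618) and OCT4 5.4 tags (rank 1107), and the nearest MED1 peak was 1357 bp away, at the site further upstream. Of the 3 clones, A6 alone had a peak at both of these neighbouring sites.

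The site at +22.5 kb lies in an intron of Jarid2 and was the second with SIM2 in all 3 clones, which 28.2% of all SIM2 sites were. Its SIM2 peaks had 12.4 tags in A6 (8.19-fold, rank 825), 9.5 in B8 (10.64-fold, rank 83) and 4.4 in C4 (5.43-fold, rank 320), with a mean of 8.77 ± 4.05 (SD, n = 3). This mean and SD, too, combine the differing scales of the clones. In contrast to -7.1 kb, B8 gave the highest place, in the upper 3.88% of its list. NANOG (20.9 tags, rank 556) and OCT4 (9.5 tags, rank 165) lay within 100 bp. No Mediator peak was near, and the closest MED12 and MED1 peaks were 22.8 kb and 29.8 kb away.

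Jarid2 also had 3 SIM2 peaks of a single clone. The peak at -24.0 kb in A6 (9.0 tags, 5.93-fold, rank 1938 of 2387) was in the lower part of its list, yet the factor peaks beside it were high. NANOG had 31.8 tags there (41.02-fold, rank 111 of 14815), OCT4 12.4 (rank 42), MED12 16.0 (rank 36) and MED1 13.3 (rank 45), all within 100 bp of the SIM2 site. These were the highest NANOG and OCT4 peaks near any of the 5 genes. The other single-clone peaks stood alone, at -94.1 kb in B8 (4.1 tags, 4.68-fold) and at -13.5 kb in A6 (10.3 tags, 4.09-fold), with the nearest NANOG peaks 394 bp and 6092 bp away.

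The promoter of Jarid2 (1 kb upstream to 300 bp downstream of the start) held NANOG, OCT4 and MED12 at -0.8 kb and MED12 alone at -0.3 kb, and no SIM2 peak in any clone. The NANOG peak there had 30.2 tags (35.03-fold, rank 130), OCT4 5.1 tags (rank 1278) and MED12 6.7 tags (rank 407). NANOG alone made up 7 further loci with 3.1 to 12.4 tags, at -94.5, -77.9, -41.1, 26.2, 85.3, 86.7 and 122.2 kb. MED1 alone had a peak at -18.0 kb (5.1 tags) and at 140.2 kb (17.2 tags, rank 26). The latter was 4.24 times the input, whereas the MED1 peak of equal tag count at -7.3 kb was 10.78 times the input.

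Mtf2 (ENSMUSG00000029267.10, chr5:108494693-108538023, plus strand) had its SIM2 site at +11.5 kb, in an intron. SIM2 was found in A6 (13.7 tags, 9.03-fold, rank 617) and B8 (6.8 tags, 6.81-fold, rank 290), and not in C4. As at -51.2 kb of Jarid2, the peak intervals of all 4 factors lay within 100 bp of the site. OCT4 had 11.1 tags (rank 72), NANOG 21.7 (rank 495), MED12 8.6 (rank 186) and MED1 7.0 (rank 189). NANOG and OCT4 were centred 21 bp and 20 bp from the SIM2 site, and MED1 and MED12 92 bp and 165 bp from it. A second locus at -29.9 kb joined NANOG (20.9 tags, rank 556) and MED12 (6.0 tags, rank 513) without SIM2. The other 6 peaks stood alone. They were NANOG at -51.3, -14.9, -13.4 and -5.1 kb (4.6 to 10.1 tags), OCT4 at 38.7 kb (3.8 tags), and the SIM2 peak of C4 at 93.0 kb (3.7 tags), which lies in a coding exon of Ccdc18. With 14 peaks, Mtf2 was among 522 genes (2.34%) with as many or more.

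**Figure D3:**
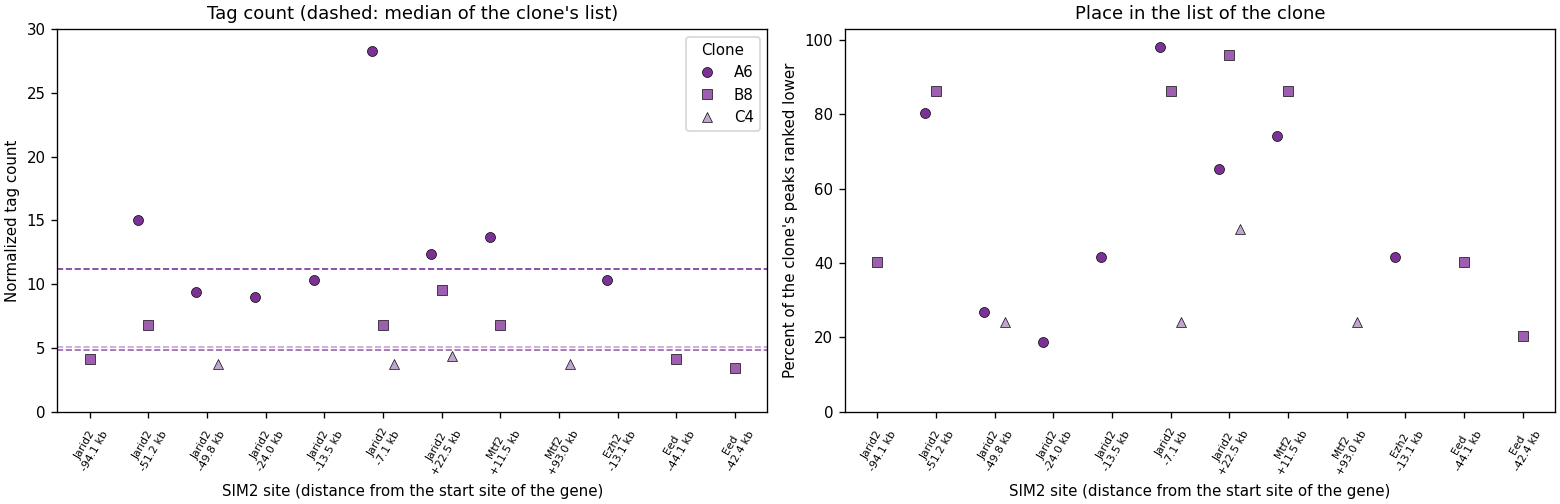
The 12 SIM2 sites near PRC2 genes (x axis), with the normalized tag count in each clone with a peak (left, dashed lines at the median of each clone's list, which is 11.2 for A6, 4.8 for B8 and 5.1 for C4) and the percent of the clone's peaks ranked lower, with tied peaks counted as lower (right). All 5 sites of at least 2 clones include A6, all 4 C4 peaks lie below the median tag count of C4, and no site near Eed has a peak in A6.

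Across the 12 positions with a SIM2 peak, 7 had a peak in 1 clone alone, 3 in A6, 3 in B8 and 1 in C4. In the whole series, 2336 of 3565 SIM2 positions were of 1 clone. The 5 sites of at least 2 clones had A6 peaks at 5, B8 peaks at 4 and C4 peaks at 3, and in the series these numbers were 1216, 1188 and 400 of 1229 sites. C4 has the shortest SIM2 list, and each of its 4 peaks here was below the median tag count of that list (5.1 tags). By fold they had 7.24, 5.88, 5.43 and 4.98, against a list median of 5.43. OCT4 lay within 100 bp of 5 of the 5 sites (46.2% of all SIM2 sites), NANOG of 4 (82.0%), MED12 of 4 (28.4%) and MED1 of 2 (12.0%). Of the 7 positions of a single clone, 4 had a NANOG peak within 100 bp, as had 1319 of the 2336.

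Of the core subunits, Ezh2 (ENSMUSG00000029687.9, chr6:47480273-47545340, minus strand) had the fewest peaks. SIM2 in A6 (10.3 tags, 6.77-fold, rank 1391 of 2387) and NANOG (9.3 tags, 8.30-fold, rank 3562 of 14815) coincided at -13.1 kb, 53 bp apart. Neither B8 nor C4 had a peak in the window. The nearest MED1, OCT4 and MED12 peaks were 179.8, 1402.9 and 4470.5 kb from this position. With 7.55 peaks per Mb, against 9.25 in the genome, Ezh2 was the 1 gene of the 5 below the genome's density. As many peaks or more were found at 11329 of the protein-coding genes (50.7%).

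Eed (ENSMUSG00000030619.8, chr7:97103166-97129493, minus strand) had 17 peaks, of which 5 were OCT4 peaks, a number reached by 25 genes (0.112%). SIM2 was found in B8 alone, at -44.1 kb (4.1 tags, 5.53-fold, rank 1278 of 2137) and -42.4 kb (3.4 tags, 4.68-fold, rank 1704), both below the B8 median of 4.8 tags. NANOG (22.5 tags, 28.12-fold, rank 441) and OCT4 (8.9 tags, rank 227) coincided with the first. Lower peaks of NANOG (7.0 tags, rank 5658), OCT4 (6.7 tags, rank 613) and MED12 (6.0 tags, rank 513) coincided with the second. Since NANOG, OCT4 and MED12 were mapped in A6, which had no SIM2 peak at Eed, their peaks and those of B8 come from different clones.

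Closer to Eed, 2 loci had several factors without SIM2. At -16.9 kb, NANOG (10.1 tags), OCT4 (7.0), MED12 (6.7) and MED1 (7.0) formed a locus of 450 bp. In an intron at +5.3 kb, NANOG (13.9 tags, rank 1660), OCT4 (4.1) and MED1 (5.7) formed another. The remaining peaks were OCT4 at -26.2 kb (4.4 tags), NANOG at 39.8 kb (3.9 tags), which lies at the promoter of l7Rn6, and NANOG at 97.0 kb (6.2 tags) in an intron of Ccdc81. The promoter of Eed had no peak in any list.

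Suz12 (ENSMUSG00000017548.9, chr11:79806608-79847625, plus strand) had 6 peaks in 3 loci, none with SIM2 or MED1. As many peaks or more were found at 3683 genes (16.5%). NANOG (18.6 tags, 25.81-fold, rank 779) and OCT4 (7.6 tags, 9.27-fold, rank 388) coincided at -12.3 kb. The other loci lay beyond the 3′ end of the gene in introns of Atad5, with NANOG (20.9 tags) and OCT4 (4.8 tags) at 105.8 kb and NANOG (20.1 tags) and MED12 (3.3 tags, rank 1017 of 1071) at 138.9 kb. By tag count, all 3 NANOG peaks were thus in the upper 10% of their list, while the MED12 peak was near the end of its own. Of the 6 peaks, 2 had Suz12 as the nearest start site.

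**Figure D4:**
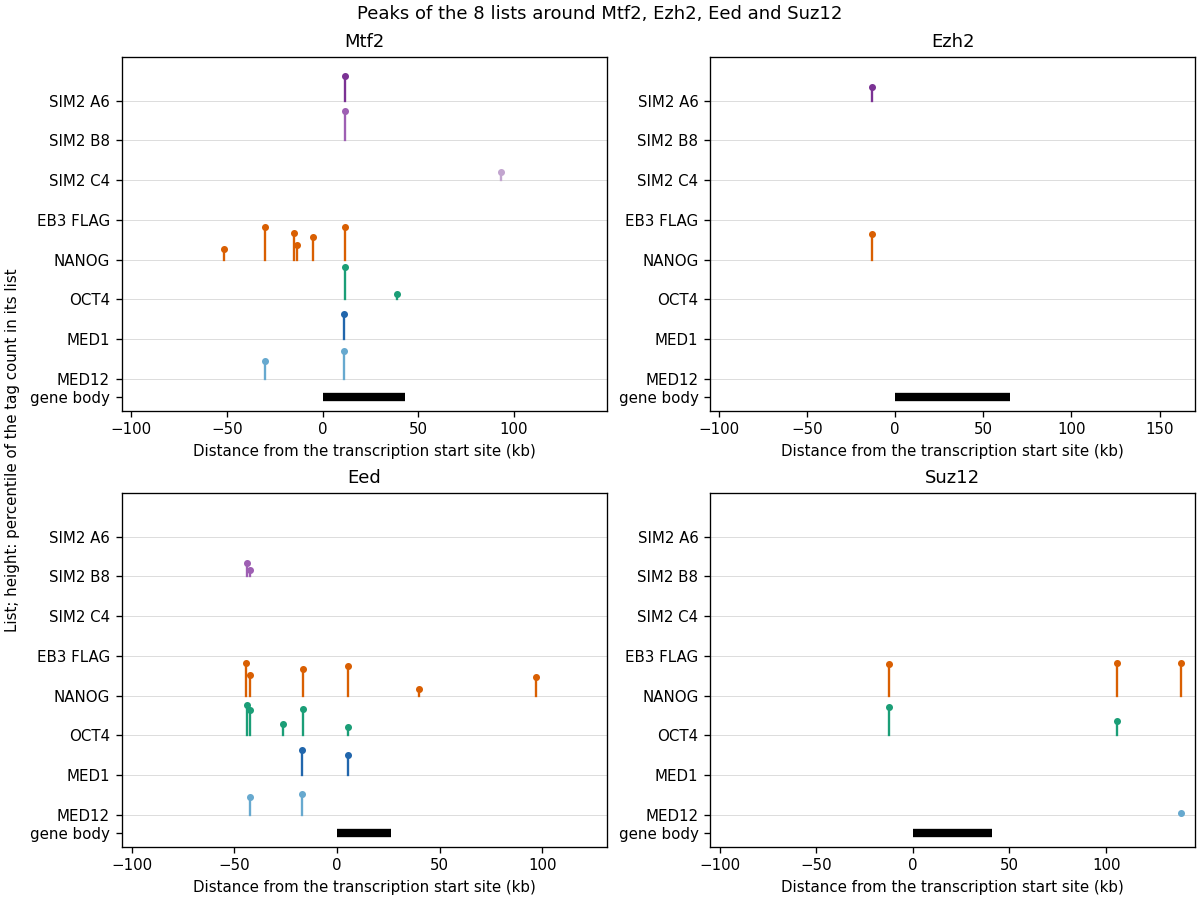
Peaks of the 8 lists (rows) around Mtf2, Ezh2, Eed and Suz12, by distance from the transcription start site (x axis, kb, positive downstream), where stick height is the percentile of the tag count within its list and the black bar is the gene body. All 5 factors stack at +11.5 kb of Mtf2, SIM2 of A6 and NANOG pair at Ezh2, SIM2 of B8 stacks with other factors at -44.1 and -42.4 kb of Eed, and Suz12 has no SIM2 stick.

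Peaks were chained into loci where intervals lay within 100 bp of each other. The 82 peaks formed 37 loci, of which 21 had 1 factor, 5 had 2, 4 had 3, 3 had 4 and 4 had all 5. Thus 16 of 37 loci had 2 or more factors, against 23.1% of the 16642 loci of the series, and 11 had 3 or more (8.79% in the series). Of the 4 loci with all 5 factors (1.12% in the series), 3 lay upstream of Jarid2 and 1 in Mtf2. NANOG stood alone at 13 loci. By annotation, 51 of the 82 peaks were intergenic, 25 intronic, 5 in promoters and 1 in a coding exon. Neither the loci of NANOG alone nor the annotated places were counted over the whole series, so these counts have no background beside them.

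A list of 34 other Polycomb genes was counted in the same way. It covers further PRC2 subunits, subunits of PRC1, which ubiquitinates histone H2A, and enzymes that remove either mark. SIM2 sites of at least 2 clones lay near 9 of the 34 (26.5%, against 13.4% of all genes). These were the PRC2 subunits Aebp2, Rbbp4 and Rbbp7, the PRC1 subunits Phc1, Phc3, Rnf2, Rybp and Scmh1, and Asxl1, a partner of the BAP1 deubiquitinase. Phc3 and Rybp had 3 sites each, Rbbp4 had 2 and the rest 1, so none reached the 4 of Jarid2. For every site at Aebp2, Phc3, Rbbp4, Rbbp7 and Rnf2, the nearest transcription start site was that of another gene. For the sites at Asxl1, Phc1, Rybp and Scmh1 it was that of the Polycomb gene itself. The site of Phc1 was the closest to a start, at -1.8 kb, with all 3 clones and NANOG, OCT4 and MED12. Only the site at -90.8 kb of Rybp had all 4 factors, as the Mtf2 site and the -51.2 kb site of Jarid2 had. NANOG peaks lay near 29 of the 34 (85.3%, against 67.7% of all genes) and OCT4 peaks near 13 (38.2%, against 21.8%). MED12 peaks lay near 7 (20.6%, against 10.9%) and MED1 peaks near 6 (17.6%, against 7.98%). Where the windows of genes overlap, a shared peak was counted for each gene.

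The genes whose counts were most like those of Jarid2 (Euclidean distance of log2 of the number of peaks plus 1 over the 8 lists, genes on other chromosomes) were Etl4, Slc37a3 and Skap2, at distances of 1.07, 1.23 and 1.27. Etl4 had 4 SIM2 sites, as Jarid2 had, and 50 peaks in all, more than Jarid2. It had 7 A6, 5 B8, 21 NANOG and 7 OCT4 peaks, each above the number at Jarid2, and fewer MED1 (3) and MED12 peaks (4). Slc37a3 and Skap2 had 3 SIM2 sites each, and all 3 genes had 3 peaks in C4, as Jarid2 had.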

How the data were processed

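FLAG, NANOG, OCT4, MED1 and MED12 ChIP-seq peak lists were analysed. The authors digested chromatin with micrococcal nuclease and sonicated it, aligned reads to mm9 (BWA), discarded duplicates, and ran HOMER at default settings on each ChIP library with its input as control (versions are not given in the sources used here). The deposited normalized tag count is a signal scaled by the authors to library size, and the deposited focus ratio is a fraction. The deposited score is the caller's own number, and the ratio of ChIP to input (the fold) with its p-value also come from the authors' HOMER run. Total tags were deposited as whole counts in 5 lists and are scaled in A6, EB3 and OCT4. The reads were not used here.

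Peak centres within 100 kb of GENCODE vM1 gene bodies were kept. SIM2 peaks with centres within 100 bp were merged to 100 bp sites, those with an EB3 centre within 100 bp were removed, and a site needed at least 2 clones. A factor peak within 100 bp of the site, as in windowBed, counted as coincident. The replicates were clones, and no test was made. Depth was read from the equal steps between tag counts. Exact letters of 7 motifs were searched in 200 bp, and 1 more was added after the sequences had been read.

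The genes named are the 5 members, genes that hold or neighbour a peak, Polycomb genes of the list with a SIM2 site, and the 3 genes most like Jarid2. The members and lists were chosen with earlier results of these data known. Alternatives covered the distance to the gene, the fold, the merging distance, the EB3 filter, the coincidence window, the score, the background genes and leaving out each clone. Python 3.11.15, numpy 2.4.6, pandas 2.3.3, scipy 1.17.1, matplotlib 3.10.9 and bedtools 2.31.1 were used, and the steps were tested on simulated data.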

Additional observations from a re-analysis of the deposited data

How the results depend on the processing

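With peaks at least 8 times the input, 39 of the 82 peaks remained, 24 of them at Jarid2, and 3 of the 5 SIM2 sites, all at Jarid2. At that fold OCT4 lay at 2 and MED1 at 1 of the 5 sites. With centres required within 100 bp, MED12 lay at 2 sites. Leaving out each clone gave 2 to 4 SIM2 sites, 2 without A6, 3 without B8 and 4 without C4. A site then needed both remaining clones, so these counts follow from the clones given above for each site. Mtf2 kept its site without C4 alone. The cause of the difference between the other settings was not tested. The mean SIM2 value at -7.1 kb was 5.25 to 17.6 tags when each clone was left out, over clones on differing scales, and 36.7 by the caller's score. At 22.5 kb it was 6.95 to 11.0 tags, and 22.7 by score, a different scale. Counting all 37252 genes, the share of genes with a peak was 11.8% for SIM2 sites, 64.1% for NANOG, 20.3% for OCT4, 7.47% for MED1 and 9.90% for MED12. Within 50 kb, among the 22350 protein-coding genes, the shares in the same order were 8.37%, 49.4%, 13.7%, 4.78% and 6.75%. Suz12 had 2 of its 6 peaks within 50 kb of its body. NANOG lay at all 5 and MED1 at 3 of the 5 sites within 500 bp. Merging within 50 or 200 bp and other EB3 filters left 5 SIM2 sites, and peak intervals in place of centres left 82 peaks. Each ChIP peak carries its fold over the input from the authors' peak calling. The inputs have no peak list of their own here, and no further paired fit of ChIP and input was made.

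C4 has the shortest list, so its missing peaks were not read as missing binding. The 3 clones are separate cultures, and every other factor rests on 1 library, so the spread of its peaks between cultures is unknown. The depth of each list was read only from the steps between tag counts. For the FLAG ChIP and input libraries, the paper gives a range of reads generated, which is not a depth per list. Peaks near a gene are not shown to act on it, and expression was not analysed here.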
